A study of Homo sapiens with 8 samples.

Results

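The translation initiation and elongation factors described here are the probe sets whose single gene symbol begins with EIF or EEF and a digit, with EIF2AK2 left out. There are 42 of them, for 40 genes, among the 8793 probe sets of an Affymetrix HG-Focus array. Messenger RNA was measured on 8 arrays, in 4 groups of 2: ZR75-1 cells transfected with an HSD17B14 plasmid, ZR75-1 cells given the vector without the insert, SKBR3 cells with the HSD17B14 plasmid, and SKBR3 cells with the vector. All were human breast cancer lines harvested 48 h after transfection with FuGene-6 in phenol-red free medium with 4% serum, ER-positive for ZR75-1 and ER-negative for SKBR3 per the labels. HSD17B14 encodes a 17-beta-hydroxysteroid dehydrogenase. Nothing in the labels tells if the 2 arrays of a group came from different cultures, and every p-value therefore measures the spread between arrays, which may be technical. In such bulk RNA, fewer cells carrying a transcript and less of it per cell cannot be told apart.

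Protein synthesis starts when the initiation factors (eIFs) bring the initiator methionyl-tRNA and the messenger RNA to the small ribosomal subunit. eIF2 carries the initiator tRNA as a GTP complex and is recharged by its exchange factor eIF2B. Kinases that phosphorylate eIF2 under stress turn it into an inhibitor of eIF2B. eIF4E binds the cap of the message, eIF4G bridges it to the ribosome through the large scaffold eIF3, and the 4E-binding proteins compete with eIF4G for eIF4E. In elongation, eEF1A delivers aminoacyl-tRNA, the eEF1B complex recharges it, and eEF2 moves the ribosome along. Many transcripts of the translation apparatus begin with a terminal oligopyrimidine (TOP) tract, a C at the cap followed by C and T bases, through which their translation responds to the kinase mTOR.

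RefSeq start sites (GRCh38.p14) were given for 31 of the 40 genes, and 9 of these 31 genes (29%) began with a C followed by at least 4 C or T bases, against 5.14% of the 27305 genes in the same table. The start was read only on the strand that has the sequence of the message. The windows of these 9 genes are shown because the tract is a feature the choice of members did not use. Each holds 10 bases before the annotated start and 20 after it, with the pyrimidine tract in capitals.
EEF1A1, chr6:73521013-73521042, minus strand: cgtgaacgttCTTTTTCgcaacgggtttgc
EEF2, chr19:3985444-3985473, minus strand: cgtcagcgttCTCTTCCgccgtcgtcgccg
EIF2D, chr1:206612446-206612475, minus strand: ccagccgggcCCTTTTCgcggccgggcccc
EIF2S3, chrX:24054946-24054975, plus strand: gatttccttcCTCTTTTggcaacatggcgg
EIF3D, chr22:36529147-36529176, minus strand: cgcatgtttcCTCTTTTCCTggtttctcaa
EIF3F, chr11:7987327-7987356, plus strand: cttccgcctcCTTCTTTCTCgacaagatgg
EIF3K, chr19:38619178-38619207, plus strand: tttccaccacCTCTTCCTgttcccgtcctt
EIF3M, chr11:32583821-32583850, plus strand: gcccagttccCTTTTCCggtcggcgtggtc
EIF4B, chr12:53006446-53006475, plus strand: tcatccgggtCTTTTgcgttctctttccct
Genes with and without the tract differed between the lines, as counted below. The windows of 3 members without it are given for comparison, picked among those that differed strongly between the lines. They hold no such tract, so none of their letters is in capitals.
EIF1B, chr3:40309697-40309726, plus strand: cattttgtgcgagaagccgcagcgccgcct
EIF2B2, chr14:75002911-75002940, plus strand: cgcccgccccggaagtgcaaactgtgtggt
EIF4ENIF1, chr22:31489823-31489852, minus strand: gccgggctgcagttacggcggctgaagaga
EEF1A1, EEF2, EIF3F and EIF4B are textbook TOP messages. For the other genes the match describes the annotated start only.

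The targeted gene followed the plasmid. HSD17B14 signals were 107.5 and 135.3 with the plasmid, against 17.8 and 2.1 with vector in ZR75-1, and 650.7 and 743.6 against 2 and 4.2 in the cells labelled SKBR3. SKBR3 is known for its amplified ERBB2, yet ERBB2 read 95.9 to 226 in ZR75-1 and 25.9 to 46.8 in the cells labelled SKBR3. E-cadherin (CDH1) read 1074.7 or more in ZR75-1 and at most 58.1 in the other cells, and vimentin (VIM) at most 25.7 in ZR75-1 and at least 3646.2 in the others. The other mesenchymal markers did not follow VIM: CDH2 and SPARC read at most 21.1 and 1.1 in the other cells. The luminal markers KRT8, KRT18, KRT19, GATA3 and TFF1 were lower there than in ZR75-1 but present, at 284 or more. PGR, also on the list of luminal markers, read only 2.6 to 22.8 in ZR75-1 and 0.4 to 2.5 in the cells labelled SKBR3. Of the other markers of a line with amplified ERBB2, GRB7 read 4.1 to 14.9 there against 8.9 to 67.7 in ZR75-1, and STARD3 27.5 to 36.4 against 24.8 to 30.3. Because ERBB2 and VIM go against the label, the cells are called SKBR3-labelled. The estrogen receptor gene ESR1 read 194.5 to 341.6 in ZR75-1 and 14.9 to 24.6 in the SKBR3-labelled cells. Over the member probe sets, log2 signals correlated with r of 0.969 to 0.994 between arrays of one group, 0.949 to 0.989 between plasmids within a line and 0.757 to 0.848 between lines, as a description of the arrays.

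Signals are linear, 1 value per probe set and array, and log2 differences are given ± limma's standard error. A probe set was tested where it exceeded its array's 40th percentile (12.1 to 17.6) on at least 2 arrays. Of the 42 member probe sets 41 passed this filter, as did 71.5% of all non-control probe sets. The probe set for EIF1AY did not, and it is not described further. EIF5A2 exceeded it on all SKBR3-labelled arrays and on 1 ZR75-1 array, barely, and so passed through the cells where it is high. A difference is called where limma's adjusted p (Benjamini-Hochberg over all 6251 tested probe sets) is under 0.05. Signals of different probe sets are not compared with each other, since each has its own response.

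Between the lines, averaged over both plasmids with 4 arrays a side, 28 of 41 member probe sets (68.3%) were called, where 49.2% of all tested probe sets were. In ZR75-1 13 were higher (23% of all) and 15 were lower (26.1% of all), and the lower ones include EIF5A2, for which only a bound is given. The median difference of the members was -0.13, beside -0.04 for all. The members had smaller standard errors, with a median of 0.12 beside 0.26 for all. A given difference thus passes more easily among them, here and in the counts between the lines below. EEF1A2, the isoform of eEF1A known from neurons and muscle, was 27.7-fold higher in ZR75-1. EIF4EBP1, EIF4EBP2, EIF4ENIF1 and the eIF2 kinases EIF2AK1 and EIF2AK3 were higher in ZR75-1, while the 3 eIF2B subunits, EIF6 and 6 eIF3 subunits were lower there. In the vector controls alone, 27 of the 41 (65.9%) were called, where 40.2% of all tested probe sets were. The median standard errors in this contrast were 0.17 for the members and 0.36 for all. These 27 again include EIF5A2, and 18 of them held in all settings that tested them. Of the 28 calls over both plasmids, 21 held in each of the 17 alternative settings that tested them. The exceptions were EEF1A1, EIF1, EIF2AK3, EIF3M, EIF4B, EIF5 and EIF5A2.

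**Figure D1:**
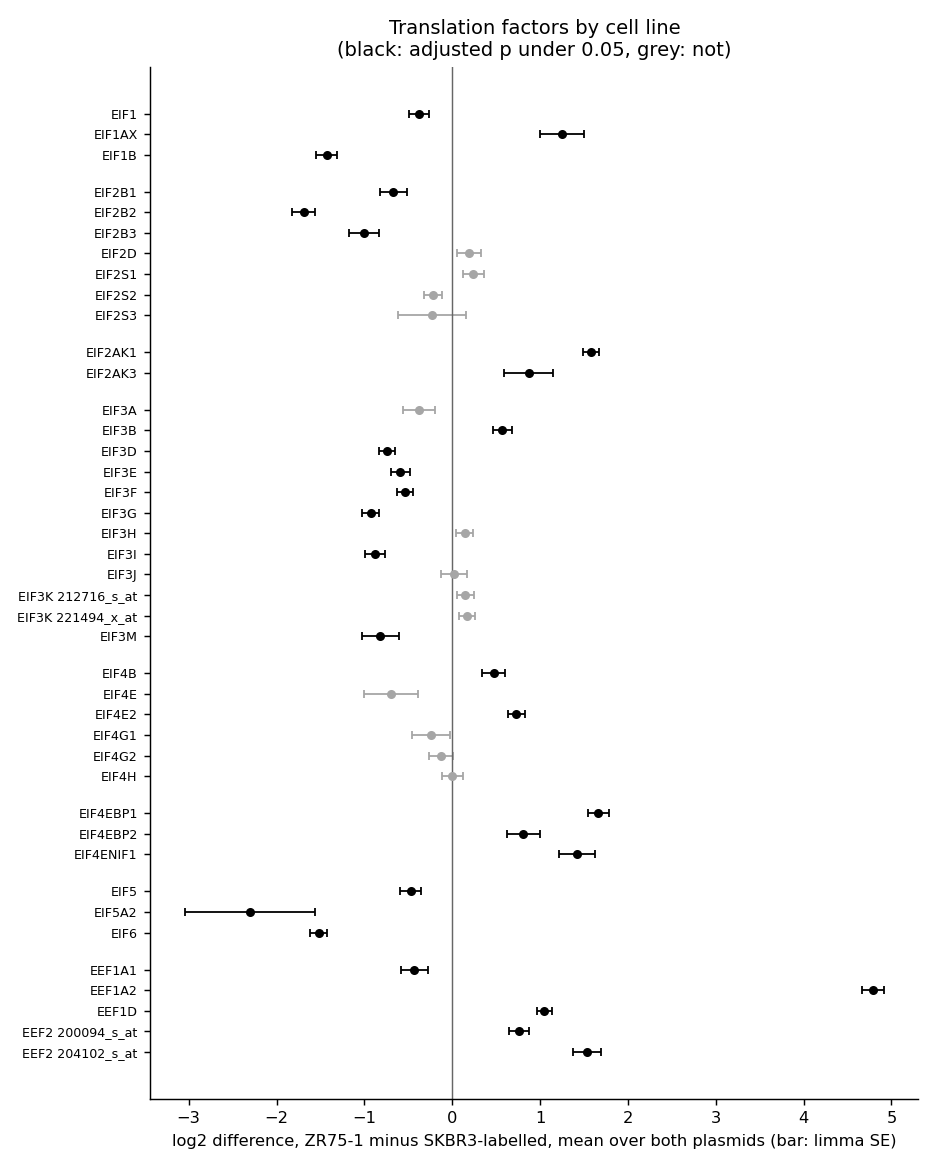
Log2 difference of ZR75-1 minus SKBR3-labelled cells, averaged over both plasmids, for the 41 tested probe sets in order of role (x axis, log2 units; bars are limma standard errors; black points have an adjusted p under 0.05). EEF1A2 stands at 4.79, and the next largest positive differences are EIF4EBP1 at 1.66 and EIF2AK1 at 1.58. EIF5A2, under the floor in ZR75-1, is plotted at its fitted value, which is no measured fold.

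eIF1 keeps the scanning ribosome open until a start codon is met, and eIF1A works beside it. EIF1 had signals of 2983.3 and 3280.8 with HSD17B14 and 2716.7 and 3047 with vector in ZR75-1, against 3313.2 and 3879.4 with HSD17B14 and 4464.3 and 4089.9 with vector in the SKBR3-labelled cells. Its ZR75-1 arrays all lay below the SKBR3-labelled ones (-0.38 ± 0.11, adjusted p = 0.0137), and the call was lost without the prior's dependence on the mean (0.0623), without ZR75-1 HSD17B14 array 1 (0.0539), without SKBR3-labelled HSD17B14 array 2 (0.0887) and without SKBR3-labelled control 1 (0.0502). EIF1B, a close relative of eIF1, had 94.1 and 88.4 with HSD17B14 and 92 and 93.5 with vector in ZR75-1, against 224.2 and 242.2 with HSD17B14 and 261.6 and 262.3 with vector in the SKBR3-labelled cells. That is 2.69-fold lower in ZR75-1 with little spread inside a line (-1.43 ± 0.12, adjusted p = 1.24e-06). EIF1AX, which encodes eIF1A, ran the other way, at 110.5 and 75.8 with HSD17B14 and 138.9 and 106.1 with vector in ZR75-1, against 44 and 51.4 with HSD17B14 and 57.9 and 29.1 with vector in the SKBR3-labelled cells. No ZR75-1 array overlapped an SKBR3-labelled one (1.25 ± 0.25, adjusted p = 0.00117).

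The 3 measured subunits of eIF2 did not pass between the lines and the 3 of eIF2B did. EIF2B2, the beta subunit of eIF2B, had signals of 120.7 and 148.1 with HSD17B14 and 111.7 and 153.8 with vector in ZR75-1, against 394.4 and 379.6 with HSD17B14 and 468.3 and 478.1 with vector in the SKBR3-labelled cells. It was 3.23-fold lower in ZR75-1 (-1.69 ± 0.13, adjusted p = 7.13e-07). EIF2B3, the gamma subunit, had 93 and 85.9 with HSD17B14 and 74.5 and 127.2 with vector in ZR75-1, against 168.2 and 182.9 with HSD17B14 and 186 and 210 with vector in the SKBR3-labelled cells, and was again lower in ZR75-1 on every array (-1 ± 0.17, adjusted p = 0.000438). EIF2B1, the alpha subunit, had 132.4 and 206.3 with HSD17B14 and 176.8 and 218.5 with vector in ZR75-1, against 284.6 and 288.7 with HSD17B14 and 278.3 and 294.7 with vector in the SKBR3-labelled cells. The arrays of the lines did not overlap for it either (-0.67 ± 0.15, adjusted p = 0.00252), but in the vector controls alone it did not pass (-0.54 ± 0.21, adjusted p = 0.0564). Of the eIF2 subunits, EIF2S1 (alpha, the phosphorylated one) differed by 0.24 ± 0.12 and EIF2S3 (gamma) by -0.23 ± 0.39, and neither passed. EIF2S2 (beta) did not pass over both plasmids (-0.22 ± 0.10, adjusted p = 0.0843) and passed in the vector controls (-0.63 ± 0.14, adjusted p = 0.00314). EIF2D, a factor of non-canonical initiation, had 170.6 and 192 with HSD17B14 and 223.1 and 157.8 with vector in ZR75-1, against 138.5 and 130.3 with HSD17B14 and 202.4 and 186.7 with vector in the SKBR3-labelled cells. It did not pass at 0.19 ± 0.14, with overlapping arrays.

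EIF2AK1 encodes the kinase HRI, which responds to lack of heme and to mitochondrial stress. Its signals were 626.2 and 628.7 with HSD17B14 and 763.4 and 731.5 with vector in ZR75-1, against 238.6 and 241 with HSD17B14 and 222 and 217.4 with vector in the SKBR3-labelled cells. They were 2.98-fold higher in ZR75-1 (1.58 ± 0.09, adjusted p = 8.2e-08). EIF2AK3, the kinase PERK of the endoplasmic reticulum, had 66.3 and 53.4 with HSD17B14 and 31.5 and 41.1 with vector in ZR75-1, against 27 and 23 with HSD17B14 and 31.7 and 21 with vector in the SKBR3-labelled cells. One ZR75-1 control overlapped the SKBR3-labelled arrays for it, and the difference was 0.87 ± 0.28 (adjusted p = 0.0241). This call was lost with a block for the spike-in level (0.0545) and without each of ZR75-1 HSD17B14 array 1 (0.0856), ZR75-1 control 2 (0.0583), SKBR3-labelled HSD17B14 arrays 1 (0.0559) and 2 (0.0868), and SKBR3-labelled control 2 (0.0567). It did not pass in the vector controls alone (0.48 ± 0.40, adjusted p = 0.376).

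Of the 12 probe sets for the 11 measured eIF3 genes, 6 were lower in ZR75-1, 1 was higher and 5 did not pass, beside 26.1% of all tested probe sets lower and 23% higher. EIF3G, an RNA-binding subunit, had signals of 369.9 and 363 with HSD17B14 and 338.2 and 295.4 with vector in ZR75-1, against 638.8 and 603.2 with HSD17B14 and 745.7 and 618.5 with vector in the SKBR3-labelled cells (-0.93 ± 0.10, adjusted p = 1.47e-05). EIF3I, a WD-repeat subunit, had 321.3 and 340.6 with HSD17B14 and 344.8 and 339.4 with vector in ZR75-1, against 630 and 520.4 with HSD17B14 and 765.8 and 585.5 with vector in the SKBR3-labelled cells (-0.88 ± 0.11, adjusted p = 5.44e-05). EIF3D, which can bind the cap itself on certain messages, had 467.5 and 489.2 with HSD17B14 and 461 and 442.2 with vector in ZR75-1, against 717.9 and 750.4 with HSD17B14 and 803.4 and 837.4 with vector in the SKBR3-labelled cells (-0.74 ± 0.09, adjusted p = 3.16e-05). For these 3 no ZR75-1 array reached an SKBR3-labelled one. EIF3E had 1408.8 and 1341.1 with HSD17B14 and 1070.4 and 1088.8 with vector in ZR75-1, against 1592.1 and 1682.7 with HSD17B14 and 1766.2 and 2367.4 with vector in the SKBR3-labelled cells (-0.59 ± 0.11, adjusted p = 0.000929). EIF3F had 768.5 and 710.5 with HSD17B14 and 857.2 and 880.8 with vector in ZR75-1, against 995.7 and 1012.7 with HSD17B14 and 1426.5 and 1277.4 with vector in the SKBR3-labelled cells (-0.54 ± 0.09, adjusted p = 0.000466). Both encode subunits of the structural core of eIF3, and again the lines did not overlap. EIF3M had 225.8 and 389.4 with HSD17B14 and 230 and 181.1 with vector in ZR75-1, against 421.6 and 557.3 with HSD17B14 and 290.6 and 525.8 with vector in the SKBR3-labelled cells. Its arrays overlapped between the lines (-0.82 ± 0.21, adjusted p = 0.00675), and the call was lost with values raised to a shared floor of 17.6, which is the largest 40th percentile of any array (0.0544), and without the prior's dependence on the mean (0.0681).

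EIF3B, a scaffold subunit, was the only eIF3 gene called higher in ZR75-1 (0.57 ± 0.11, adjusted p = 0.000872). It had 274.1 and 319.8 with HSD17B14 and 304.1 and 297.5 with vector in ZR75-1, against 182.2 and 187.6 with HSD17B14 and 229.2 and 206.4 with vector in the SKBR3-labelled cells. The probe sets for EIF3K gave like results. Probe set 212716_s_at had 574.1 and 654.4 with HSD17B14 and 639.8 and 780.5 with vector in ZR75-1, against 555.2 and 577 with HSD17B14 and 655 and 593.2 with vector in the SKBR3-labelled cells, and 221494_x_at had 976.1 and 987.6 with HSD17B14 and 1019.3 and 1153.7 with vector in ZR75-1, against 885.6 and 967.6 with HSD17B14 and 889.1 and 926.5 with vector in the SKBR3-labelled cells. Their line differences of 0.15 ± 0.10 and 0.17 ± 0.09 did not pass. EIF3A, EIF3H and EIF3J had differences of -0.38 ± 0.18, 0.14 ± 0.10 and 0.02 ± 0.15, and did not pass either, with signals between 160.5 (EIF3A) and 1543 (EIF3H).

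**Figure D2:**
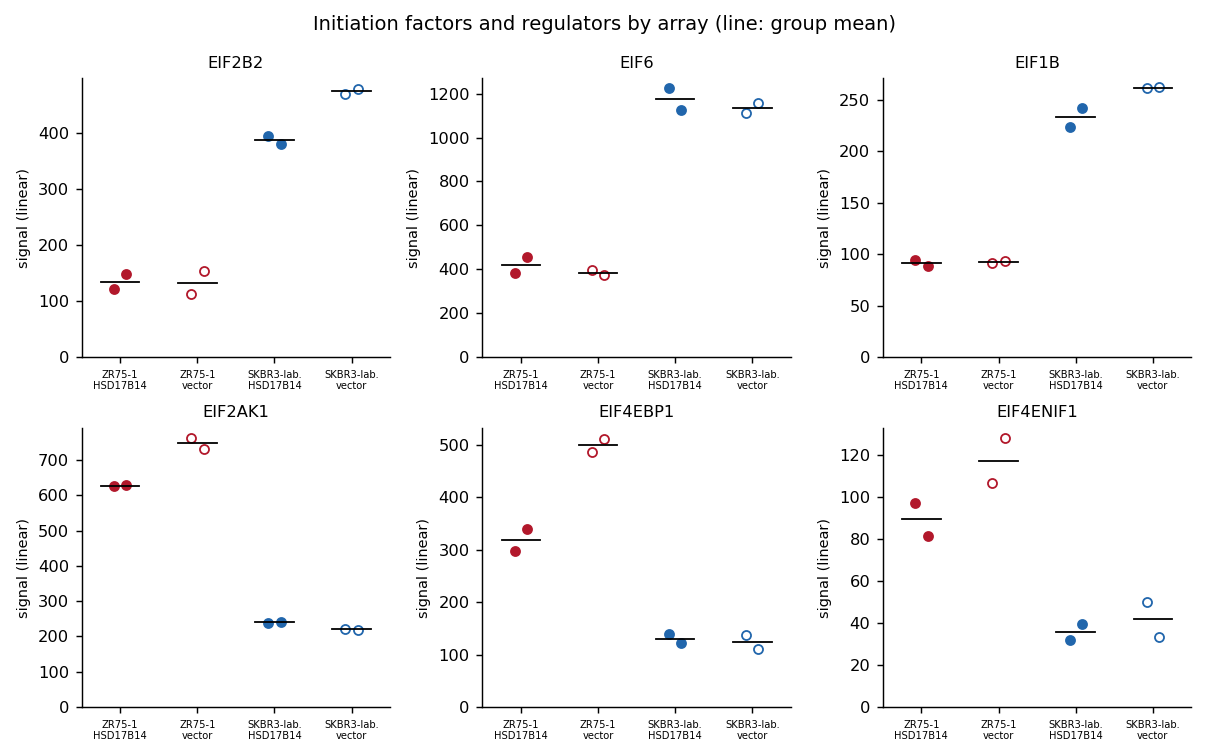
Signals of 6 initiation factors and regulators on each array (y axis, linear signal from 0; points are arrays, filled for the HSD17B14 plasmid and open for vector; lines are group means of 2). EIF2B2, EIF6 and EIF1B lie lower in ZR75-1, and EIF2AK1, EIF4EBP1 and EIF4ENIF1 lie higher, with no overlap between the lines in any of the 6.

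Around the cap, EIF4EBP1, EIF4EBP2 and EIF4ENIF1, which encode proteins that bind eIF4E and repress, were higher in ZR75-1, and the scaffold EIF4G1 did not pass. EIF4EBP1, the main mTOR-controlled inhibitor of eIF4E, had signals of 297.5 and 340.1 with HSD17B14 and 487.6 and 512.2 with vector in ZR75-1, against 139.7 and 121.5 with HSD17B14 and 137.5 and 110 with vector in the SKBR3-labelled cells. It was 3.15-fold higher (1.66 ± 0.12, adjusted p = 4.54e-07). EIF4EBP2, its relative, had 92.5 and 96.8 with HSD17B14 and 93.1 and 91.3 with vector in ZR75-1, against 61.5 and 47.1 with HSD17B14 and 43 and 63.9 with vector in the SKBR3-labelled cells (0.81 ± 0.19, adjusted p = 0.00421). EIF4ENIF1 encodes 4E-T, which carries eIF4E to the nucleus and to sites of mRNA decay, and had 97.3 and 81.6 with HSD17B14 and 106.7 and 128 with vector in ZR75-1, against 31.8 and 39.5 with HSD17B14 and 50.1 and 33.5 with vector in the SKBR3-labelled cells. It was 2.68-fold higher (1.42 ± 0.21, adjusted p = 0.000136). In all 3, no array of one line reached those of the other.

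EIF4E2, a cap-binding relative of eIF4E that acts in repression, had 380.7 and 432.3 with HSD17B14 and 361.4 and 387.4 with vector in ZR75-1, against 206.8 and 227.5 with HSD17B14 and 267.7 and 244.5 with vector in the SKBR3-labelled cells and was also higher in ZR75-1 (0.73 ± 0.10, adjusted p = 0.000115). EIF4B, a cofactor of the helicase eIF4A, had 247.7 and 249 with HSD17B14 and 320.9 and 269.7 with vector in ZR75-1, against 203.4 and 191.2 with HSD17B14 and 159.9 and 231 with vector in the SKBR3-labelled cells. It was 1.39-fold higher in ZR75-1 (0.47 ± 0.13, adjusted p = 0.0118), and lost its call with median centring (0.0728) and without the prior's dependence on the mean (0.0677). EIF4E itself differed by -0.70 ± 0.31 (adjusted p = 0.0795). The scaffold EIF4G1 had signals of 33.9 and 57 with HSD17B14 and 72.5 and 71.5 with vector in ZR75-1, against 68.8 and 67.7 with HSD17B14 and 73.4 and 56.9 with vector in the SKBR3-labelled cells and differed by -0.24 ± 0.22. Its relative EIF4G2 had 1139.1 and 1327.6 with HSD17B14 and 1245.5 and 1071.4 with vector in ZR75-1, against 1118.4 and 1340.6 with HSD17B14 and 1120.2 and 1720.1 with vector in the SKBR3-labelled cells and differed by -0.13 ± 0.14. Neither scaffold passed, nor did EIF4H at 0.00 ± 0.12.

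EIF6, which holds the large ribosomal subunit apart from the small one, had signals of 385.3 and 455.9 with HSD17B14 and 395.7 and 373.3 with vector in ZR75-1, against 1226.2 and 1126.7 with HSD17B14 and 1113.1 and 1157.1 with vector in the SKBR3-labelled cells. The ZR75-1 arrays reached at most 455.9 and the SKBR3-labelled ones at least 1113.1, and the difference was 2.88-fold, lower in ZR75-1 (-1.52 ± 0.10, adjusted p = 1.77e-07). EIF5, the GTPase-activating protein of eIF2, had 272 and 291.8 with HSD17B14 and 243.2 and 188.1 with vector in ZR75-1, against 332 and 326 with HSD17B14 and 310.1 and 399.1 with vector in the SKBR3-labelled cells. It was lower in ZR75-1 with no overlap (-0.47 ± 0.12, adjusted p = 0.00788), and lost its call without the prior's dependence on the mean (0.0576). EIF5A2, a relative of the hypusine-containing factor eIF5A, had 15.1 and 3.8 with HSD17B14 and 6.9 and 1.1 with vector in ZR75-1, against 23.7 and 19 with HSD17B14 and 26.7 and 21.4 with vector in the SKBR3-labelled cells. All its ZR75-1 arrays lay under the common floor, so only a bound can be given: the SKBR3-labelled cells were at least 1.28-fold higher. No p is given for it, since it passed the filter through the cells where it is high.

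All 5 probe sets of elongation factors were called between the lines, where 49.2% of all tested probe sets were. Their median standard error was 0.12, beside 0.26 for all. EEF1A2 had signals of 1439.8 and 1090.4 with HSD17B14 and 2328.6 and 2413.2 with vector in ZR75-1, against 67.5 and 53.1 with HSD17B14 and 63.9 and 65.8 with vector in the SKBR3-labelled cells. Its lowest ZR75-1 array, at 1090.4, stood far above its highest SKBR3-labelled array, at 67.5, and the difference was 27.7-fold (4.79 ± 0.12, adjusted p = 2.13e-10). In the vector controls it was 36.6-fold (5.19 ± 0.17, adjusted p = 5.48e-09). EEF1A1, the isoform of most tissues, had 5221.2 and 3876.3 with HSD17B14 and 4103 and 4585.1 with vector in ZR75-1, against 4438.7 and 5415 with HSD17B14 and 8356.8 and 6279.5 with vector in the SKBR3-labelled cells. It was lower in ZR75-1 by 0.43 ± 0.15 on the log2 scale with overlapping arrays (adjusted p = 0.0296). EEF1A1 has many processed copies, and an x_at probe set like this may also take up other transcripts, so its value is uncertain. The EEF1A1 call was lost with no filter (0.0506), with the common floor (0.0727) and without the prior's dependence on the mean (0.108). It was also lost without ZR75-1 HSD17B14 array 2 (0.124), ZR75-1 control 1 (0.0621), SKBR3-labelled HSD17B14 array 2 (0.131) or SKBR3-labelled control 1 (0.126).

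EEF1D, the delta subunit of the eEF1B exchange complex, had 1595.9 and 1468.3 with HSD17B14 and 1510 and 1579.1 with vector in ZR75-1, against 700.8 and 630.3 with HSD17B14 and 812.6 and 837.8 with vector in the SKBR3-labelled cells and was 2.08-fold higher in ZR75-1 (1.05 ± 0.09, adjusted p = 2.31e-06). EEF2 was measured by 2 probe sets, both higher in ZR75-1. The first, 200094_s_at, had 555.9 and 717.6 with HSD17B14 and 1001.1 and 833.9 with vector in ZR75-1, against 435.4 and 411.7 with HSD17B14 and 499.5 and 451.7 with vector in the SKBR3-labelled cells (0.76 ± 0.11, adjusted p = 0.000161). The second, 204102_s_at, had 863.9 and 863.4 with HSD17B14 and 2036.4 and 1133.3 with vector in ZR75-1, against 557.7 and 503.1 with HSD17B14 and 327.7 and 270.8 with vector in the SKBR3-labelled cells (1.53 ± 0.16, adjusted p = 9.25e-06). They shared the direction between the lines.

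The HSD17B14 plasmid changed the signal of few members past the threshold. In ZR75-1, 1 of 41 probe sets (2.44%) was called, beside 1.52% of all tested probe sets, and it was EEF1A2. Its signals of 1439.8 and 1090.4 with HSD17B14 lay below the 2328.6 and 2413.2 with vector. It fell 1.89-fold (log2 -0.92 ± 0.17, adjusted p = 0.0305). The 3 probe sets of EEF1A2 and EEF2 lay lower with the plasmid without overlap, at -0.92, -0.53 and -0.81 (26.3% of all tested probe sets lay lower without overlap), while EEF1A1 and EEF1D stood at 0.05 ± 0.21 and -0.01 ± 0.13. At an unadjusted p under 0.05, 3 members lay higher with the plasmid (8.35% of all) and 5 lay lower (9.61% of all). The median of the members was -0.01, beside -0.04 for all.

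The EEF1A2 call in ZR75-1 was close to the threshold. It was lost without ZR75-1 HSD17B14 array 1 (0.0631) or 2 (0.131), ZR75-1 control 1 (0.0845) or 2 (0.0884), and SKBR3-labelled HSD17B14 array 1 (0.0551) or 2 (0.0563), and held without either SKBR3-labelled control (0.0377 and 0.0366). The fitted change stayed between -1.14 and -0.72 in every setting run. It was also lost with median centring (-0.72, 0.144), which moved the median of all probe sets in this contrast by 0.2, with low values set to the shared floor (0.0731), and without the prior's dependence on the mean (0.212). The Bacillus spike-in controls were high on ZR75-1 HSD17B14 array 2, SKBR3-labelled HSD17B14 array 2 and SKBR3-labelled control 2. Among the low ZR75-1 arrays, 1 against 2, EEF1A2 differed by -0.72, and with a block for the spike-in level by -0.80 (adjusted p = 0.0848). The actin 3'/5' ratio, a measure of RNA integrity, was 2.83 and 2.66 with HSD17B14 against 2.03 and 2.02 with vector in ZR75-1. The GAPDH 3'/5' ratio ran the other way on these arrays, at 0.9 and 0.88 against 1.08 and 1.04. The part of RNA integrity in the result was not tested.

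**Figure D3:**
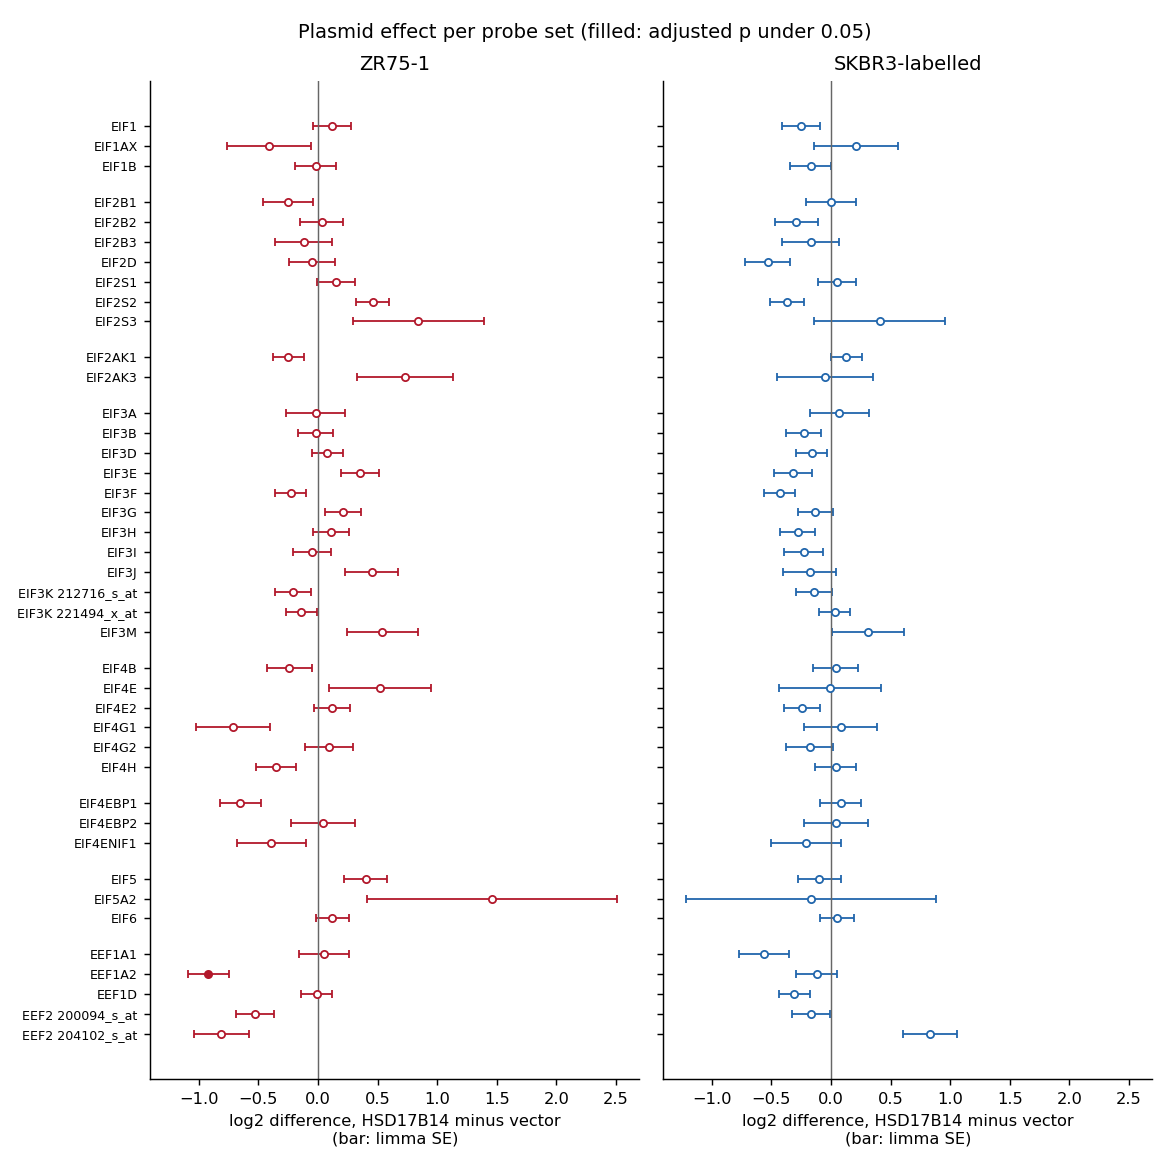
Log2 difference of HSD17B14 minus vector for the 41 tested probe sets in ZR75-1 (left) and the SKBR3-labelled cells (right), with limma standard errors; filled points have an adjusted p under 0.05. Only EEF1A2 in ZR75-1 is filled, at -0.92, and EEF2 204102_s_at lies at -0.81 in ZR75-1 and 0.83 in the SKBR3-labelled cells. The wide bars are EIF5A2, whose ZR75-1 signals lay under the floor.

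The members with the next largest differences in ZR75-1 did not pass, and EIF5A2, under the floor there with and without the plasmid, gets no fold. EIF4EBP1 lay lower with the plasmid, at 297.5 and 340.1 against 487.6 and 512.2 (-0.65 ± 0.17, adjusted p = 0.0786). EIF4G1 had 33.9 and 57 against 72.5 and 71.5 (-0.71 ± 0.31, adjusted p = 0.249). On the other side EIF2S3 had 31.4 and 41.6 against 25.5 and 15.9 (0.84 ± 0.55, adjusted p = 0.45), near the floor in ZR75-1. EIF2AK3 had 66.3 and 53.4 with the plasmid against 31.5 and 41.1 with vector (0.73 ± 0.40, adjusted p = 0.374). EIF3M differed by 0.54 ± 0.30 (adjusted p = 0.376). The arrays of EIF4EBP1, EIF4G1, EIF2S3 and EIF2AK3 did not overlap between the plasmids, and those of EIF3M did.

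In the SKBR3-labelled cells, 0 of 41 member probe sets were called by limma, beside 0.992% of all, and at an unadjusted p under 0.05 1 was higher and 5 lower (4.96% and 3.82% of all). The standard errors of the members ran from 0.13 to 1.05, with a median of 0.17. They come from 1 spread fitted over all 8 arrays and are the same for both lines. They do not measure the SKBR3-labelled arrays alone, and the 1.05 belongs to EIF5A2, under the floor in ZR75-1. EEF1A1 had the most negative difference, at 4438.7 and 5415 with HSD17B14 against 8356.8 and 6279.5 with vector (-0.56 ± 0.21, adjusted p = 0.441). Its size depended on the processing, between -0.77 and -0.15 over the settings run, with -0.15 under quantile normalization. EIF2D had 138.5 and 130.3 with the plasmid against 202.4 and 186.7 with vector (-0.53 ± 0.19, adjusted p = 0.428). EIF3F had 995.7 and 1012.7 against 1426.5 and 1277.4 (-0.43 ± 0.13, adjusted p = 0.282). In each of these 3 the plasmid arrays lay below both controls.

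Without overlap, 16 of 41 members lay lower with the plasmid in the SKBR3-labelled cells (20.6% of all tested probe sets did) and 2 lay higher (19.5% of all). In ZR75-1 these counts were 11 lower and 8 higher (26.3% and 20.7% of all). The members' median difference in the SKBR3-labelled cells was -0.14, beside -0.01 for all probe sets, and it stayed between -0.16 and -0.07 in the settings run. The 2 that lay higher were EIF2AK1, at 238.6 and 241 against 222 and 217.4, and EEF2 204102_s_at. EIF2S3 had 34.1 and 39.1 with the plasmid against 16 and 47.2 with vector (0.41 ± 0.55), and EIF3M had a difference of 0.31 ± 0.30, both with overlapping arrays. Both turned negative without SKBR3-labelled control 1, to -0.37 for EIF2S3 and -0.12 for EIF3M.

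The 11 tested probe sets of the 9 genes with a pyrimidine tract at the start had a median difference of -0.14 in the SKBR3-labelled cells, against -0.17 for the 21 probe sets of genes whose start lacked it. In ZR75-1 these medians were -0.14 and 0.04. Between the lines, 7 of the 11 with the tract (63.6%) and 15 of the 21 without it (71.4%, EIF5A2 included) were called, beside 49.2% of all tested probe sets. Of the probe sets with the tract, 0 passed limma's test of the plasmid in either line. At an unadjusted p under 0.05, 0 of the 11 were higher and 2 lower in ZR75-1 (8.35% and 9.61% of all tested probe sets), and 1 was higher and 3 lower in the SKBR3-labelled cells (4.96% and 3.82% of all). The 2 lower in ZR75-1 were both of the gene EEF2, and the 1 higher in the SKBR3-labelled cells was EEF2 204102_s_at. The 8 probe sets of the 7 measured textbook TOP genes (EEF1A1, EEF1D, EEF2, EIF3E, EIF3F, EIF3H and EIF4B) had a median of -0.29 in the SKBR3-labelled cells and -0.12 in ZR75-1. Of these 8, 6 lay lower without overlap in the SKBR3-labelled cells (20.6% of all tested probe sets did), and 0 passed the test. Between the lines 4 of the 8 were higher and 3 lower in ZR75-1, so the textbook TOP genes did not share a direction there.

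Averaged over both lines, with 4 arrays a side, 0 of 41 members were called (1.5% of all), and 4 were lower and 0 higher at an unadjusted p under 0.05 (7.33% and 6.83% of all). The most negative was EEF1A2 at -0.52 ± 0.12 (adjusted p = 0.072), followed by EEF2 200094_s_at at -0.35 ± 0.11 and EIF3F at -0.33 ± 0.09 (adjusted p = 0.183 and 0.126). The EEF1A2 average passed with quantile normalization (0.0377) and with log2 of the value plus 32 (0.0232). Setting aside EIF5A2, the largest positive averages were EIF2S3 at 0.63 ± 0.39, EIF3M at 0.42 ± 0.21 and EIF2AK3 at 0.34 ± 0.28, and none of them passed. EIF2S3 read under the floor of 17.6 on 1 control of each line, at 15.9 in ZR75-1 and 16 in the SKBR3-labelled cells.

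The difference of the plasmid effects, ZR75-1 minus SKBR3-labelled, was called for 1 of 41 members (0.624% of all), EEF2 204102_s_at. Its signals were 863.9 and 863.4 with HSD17B14 against 2036.4 and 1133.3 with vector in ZR75-1, and 557.7 and 503.1 against 327.7 and 270.8 in the SKBR3-labelled cells. The plasmid arrays lay below the controls in one line and above them in the other. In the model of both lines, the effects were -0.81 ± 0.23 and 0.83 ± 0.23, neither called on its own. Their difference was -1.65 ± 0.32 (adjusted p = 0.0468). Both effects share 1 spread fitted over the lines together. With each line fitted alone, the SKBR3-labelled effect was called (0.83, adjusted p = 0.0347) and the ZR75-1 effect was not (-0.81, adjusted p = 0.0887). With log2 of the value plus 32, only the ZR75-1 effect was called (adjusted p = 0.038, against 0.0921 in the SKBR3-labelled cells). The other EEF2 probe set, 200094_s_at, had effects of -0.53 ± 0.16 in ZR75-1 and -0.17 ± 0.16 in the SKBR3-labelled cells, with a difference of -0.37 ± 0.23 (adjusted p = 0.533). The probe sets thus went the same way in ZR75-1 and opposite ways in the SKBR3-labelled cells. The log2 ratio of 200094_s_at to 204102_s_at was -0.36 and -0.29 on the SKBR3-labelled arrays with HSD17B14, against 0.61 and 0.74 with vector.

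The EEF2 204102_s_at difference held without ZR75-1 control 2 (0.00549) and was lost without any other array. These were ZR75-1 HSD17B14 arrays 1 (0.153) and 2 (0.141), ZR75-1 control 1 (0.0521), SKBR3-labelled HSD17B14 arrays 1 (0.216) and 2 (0.166), and SKBR3-labelled controls 1 (0.0726) and 2 (0.122). The ZR75-1 effect rests strongly on its controls: it was -0.39 without control 1, and -1.24 and called without control 2 (0.0127). Within spike-in levels, the SKBR3-labelled effect was 0.77 on the low and 0.89 on the high arrays, each 1 against 1, and the ZR75-1 effect was -0.81 on the low arrays. The actin 3'/5' ratio in the SKBR3-labelled cells was 2.28 and 3.09 with HSD17B14 against 3.6 and 3 with vector. The GAPDH 3'/5' ratio there was 0.81 and 0.89 against 0.91 and 0.87, and both ratios overlapped between the plasmids. The part of RNA integrity in the difference between the EEF2 probe sets was not tested.

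**Figure D4:**
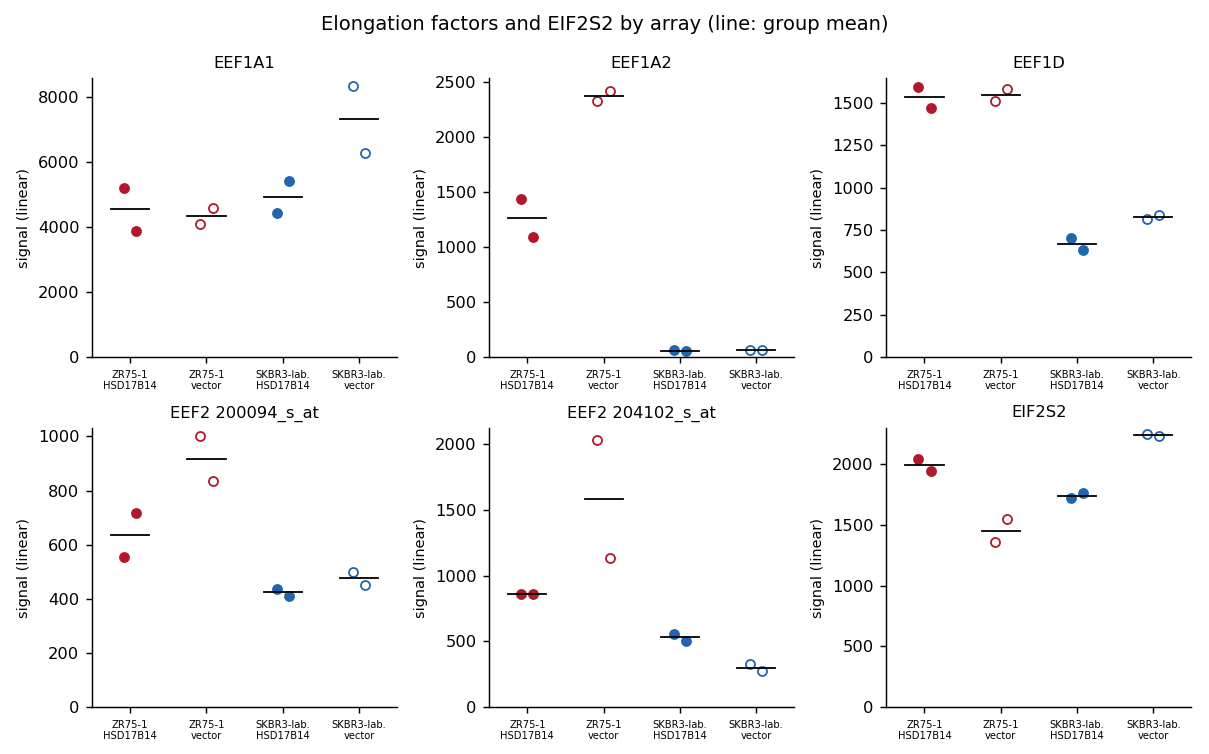
Signals of the 5 elongation factor probe sets and of EIF2S2 on each array (y axis, linear signal from 0; points are arrays, filled for the HSD17B14 plasmid and open for vector; lines are group means of 2). EEF1A2 reads 1090.4 or more in ZR75-1 and 67.5 or less in the SKBR3-labelled cells, and the plasmid arrays of EEF2 204102_s_at lie below the vector arrays in ZR75-1 and above them in the SKBR3-labelled cells.

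EIF2S2, the beta subunit of eIF2, had the largest positive difference of plasmid effects apart from EIF5A2, and it did not pass (0.83 ± 0.19, adjusted p = 0.104). Its signals were 2044.5 and 1941.8 with HSD17B14 against 1358.3 and 1545.2 with vector in ZR75-1, and 1718.3 and 1759.4 against 2252.2 and 2236 in the SKBR3-labelled cells. The plasmid arrays lay above the controls in ZR75-1 and below them in the other line. EIF2AK3, EEF1A2 and EIF4G1 followed at 0.78 ± 0.57, -0.80 ± 0.25 and -0.79 ± 0.43, and did not pass. EIF5A2, at 1.63 ± 1.48, lay under the floor in ZR75-1 on all arrays. The EEF1A2 change in ZR75-1 is thus not shown to differ from that in the SKBR3-labelled cells, -0.12 ± 0.17 (adjusted p of the difference = 0.212).

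Of 31 listed pathway genes that are not members (EIF2AK2 among them), 17 were on the array with 1 symbol, and all 17 were tested. EIF2AK2, the double-stranded RNA kinase PKR and a known interferon target, was the 1 that rose in the SKBR3-labelled cells, at 412.6 and 419.9 with HSD17B14 against 146.5 and 199.8 with vector (1.28 ± 0.17, adjusted p = 0.00158). In ZR75-1 0 of the 17 passed limma (1.52% of all tested probe sets did), with 1 higher and 3 lower at an unadjusted p under 0.05 (8.35% and 9.61% of all). Averaged over the lines 2 of the 17 were called (1.5% of all tested probe sets were). EIF2AK2 rose, and TUFM, the mitochondrial elongation factor, fell by 0.50 ± 0.11 on the log2 scale (adjusted p = 0.0455). Between the lines 4 of the 17 were higher in ZR75-1 and 5 lower (23% and 26.1% of all tested probe sets), which is near the share over all. RPS6KB2, a ribosomal S6 kinase, was higher in ZR75-1 (3.08 ± 0.26, adjusted p = 1.41e-06). Its signals there were 104.4 and 199.2 with HSD17B14 and 197.6 and 224.8 with vector. In the SKBR3-labelled cells they were 20.7 and 18 with HSD17B14 and 28.9 and 16.9 with vector. These lay near the common floor, with 16.9 under it, so the size of the difference is uncertain. RPS6KB1, another ribosomal S6 kinase, was lower in ZR75-1 with overlapping arrays (-1.29 ± 0.31, adjusted p = 0.0048). MKNK2, a kinase of eIF4E, was higher by 1.46 ± 0.10, and PPP1R15A, which directs a phosphatase to eIF2, was lower in ZR75-1 at -1.66 ± 0.15.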

How the data were processed

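The authors deposited a linear signal intensity for every probe set, and the submitters' processing notes name MAS5; its version, scaling target and detection calls are not given in the sources used here. In the table, the 2% trimmed mean is 100.1 on each array. Genes were named from the platform annotation, and the gene IDs of all 42 member probe sets matched RefSeq with 0 symbols changed. A further 4 probe sets, for EEF1B2, EIF4A1, EIF4A2 and EIF3C, carry several symbols and were left out. Start sites came from RefSeq.

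Of the 8793 probe sets, 47 controls were left out. Before taking log2, a lower limit of 1 was set (2.4% to 7.1% of the values of an array lay under it). One linear model with 4 groups was fitted (limma 3.58.1, R 4.3.3; eBayes with trend; 4 residual degrees of freedom and 7.39 from the prior), and 6 contrasts were drawn from it with Benjamini-Hochberg adjustment over 6251 probe sets. The model was also run on simulated data with independent noise of the fitted spread. Such data cannot show shifts between arrays, and no result here rests on them. Figures used matplotlib 3.10.9 in Python 3.11.15. As on any array, the number of arrays limits the precision.

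Named members are all those called in any contrast, the 3 largest and 3 smallest differences of each, genes with several probe sets, and paralogues. The members, lists and alternatives were chosen with earlier results of these data known. A ranking of genes by likeness to a member was planned and is not given, since the 8 arrays fall into 2 clusters by line. Alternatives were quantile normalization, median centring, a filter at the 60th percentile or none, adding 32 before log2, a shared floor of 17.6, a constant prior, a block for the replicate number or the spike-in level as a block, smaller fits, and leaving out each array.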

Additional observations from a re-analysis of the deposited data

Results flagged for a closer look

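The plasmid effect on EEF2 probe set 204102_s_at differed between the lines by a test of the difference itself: ZR75-1 minus SKBR3-labelled was -1.65 ± 0.32 on the log2 scale (limma adjusted p = 0.0468). Its 2 arrays with HSD17B14 lay below the controls in ZR75-1 and above them in the SKBR3-labelled cells. Over the other settings run the adjusted p lay between 0.00549 and 0.346. The second EEF2 probe set, 200094_s_at, gave -0.37 ± 0.23 for the same difference (adjusted p = 0.533).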

How the results depend on the processing

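Between the lines, 28 member probe sets were called over both plasmids and 27 in the vector controls. These counts stayed within 1.5 times of that in all settings run, at 23 to 30 and 18 to 29, and at 25 to 28 and 21 to 29 when each array was left out. The plasmid's counts rest on 1 probe set each. In ZR75-1 the count of 1 was 0 with median centring, values raised to the common floor, a prior not dependent on the mean or the spike-in level as a block, 3 with log2 of the value plus 32, 2 with each line fitted alone, and 0 to 1 when each array was left out. In the SKBR3-labelled cells the count of 0 was 1 with each line fitted alone and 0 to 1 when each array was left out. The SKBR3-labelled probe set called with each line fitted alone was EEF2 204102_s_at. The averaged effect had 1 in place of 0 with quantile normalization and with log2 of the value plus 32. For the difference of effects the count of 1 was 0 with quantile normalization, median centring, no filter, the common floor, the prior not dependent on the mean or the spike-in block, and 0 to 1 when each array was left out; the cause was not tested. Without SKBR3-labelled control 1, the effects of EIF2S3 and EIF3M in those cells reversed to -0.37 and -0.12, and over the 8 arrays left out in turn they ranged up to 1.19 and 0.74 (without SKBR3-labelled control 2). The labels do not say that equal replicate numbers share a culture or day, so such arrays were not treated as pairs. Arrays of equal replicate number did not deviate together (correlations of -0.04 to 0.06 over 6 pairs of groups). The spike-in controls were high on array 2 of 3 of the 4 groups. With the replicate block the counts were 1, 0, 0 and 1 for the plasmid's effects and their difference and 29 and 28 between the lines, and the block changed none of the plasmid calls. Signals near the floor, as for EIF5A2 and EIF2S3, limit what can be said of low members.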
